A study of Mus musculus with 2 samples.

Results

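The genes described here are 10 immediate early genes: Klf6 and members of the early growth response (Egr), Nr4a and AP-1 families. They were measured in naive CD8+ T cells with and without the transcription factor Bcl11b. They were chosen by name: every gene spot on both arrays whose gene name was Egr1, Egr2, Egr3, Nr4a1, Nr4a2, Nr4a3, Fos, Jun, Junb or Klf6 was taken, without regard to its signal. All 10 were on the arrays, with 13 probes in 40 spots per array, and 9 of them were among the 9273 genes counted as measured, with a probe well above background in the same channel of both arrays. Nr4a3 was the exception, and 11 of the 13 probes passed this filter.

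The knockout mice carried floxed Bcl11b alleles and the dLck-iCre transgene, in which the distal Lck promoter drives a Cre recombinase at a late stage of T cell development. The mice they were set against were wild type, and the labels do not say whether these carried iCre. Both were of the C57BL/6 background, and naive animals of each genotype gave CD44low CD25low CD8+ T cells, sorted with a stated purity of more than 90%. The labels give no age, and do not say how many mice made up a sample. Each of 2 two-colour arrays compared a knockout sample labelled with Cy5 and a wild-type sample labelled with Cy3, so there was 1 ratio per array and n = 2. The dyes ran the same way on both arrays, so a gene's dye effect and the effect of the knockout cannot be told apart. The labels call the arrays biological replicates.

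Immediate early genes are transcribed within minutes of a stimulus from factors that the cell already holds, without new protein synthesis. In T cells they answer the antigen receptor: calcium and calcineurin act mainly on the Nr4a and Egr2 and Egr3 genes, and the Ras to ERK pathway acts on Egr1 and Fos through serum response factor and its Elk partners. Nr4a1 and Egr family levels are widely used as reports of recent receptor signalling, and many of these genes are also induced by tissue dissociation and cell sorting.

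The arrays differed in the spread of their ratios, and this touches every value that follows. Log2 ratios of knockout over wild type had a standard deviation across genes of 1.01 on array 1 and 0.41 on array 2, and 2504 and 263 genes were past 2-fold on these arrays. The 2 sets of ratios correlated weakly across genes (Pearson r = 0.29, with genes that are not independent replicates). On array 1, knockout RNA lit 17276 of 43379 gene spots well above background and wild-type RNA 10739, and on array 2 knockout RNA lit 10955 and wild-type RNA 13446. Y-linked genes went opposite ways on the arrays: a probe of Ddx3y and the probe of Eif2s3y were well above background on array 1 in the knockout but not in wild type, and on array 2 in wild type but not in the knockout. Bcl11b itself had log2 ratios of -1.45 on array 1 and -1.73 on array 2, a mean of -1.59 ± 0.19 (SD, n = 2) that missed the threshold (adjusted p = 0.075 over all genes, limma). A second Bcl11b probe gave -0.35 and -2.32, and neither probe was placed against the floxed exon here.

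The sorted cells carried their label in both genotypes: all 8 CD8 T cell markers measured, among them Cd3d, Cd3e, Cd8b1 and Lck, were well above background in both channels of both arrays. Markers of other cells were also detected. The B cell genes Cd79b and Ighm were well above background in all channels, and Cd4 in wild type on both arrays and in the knockout on 1, whereas Cd79a and Foxp3 were not well above background in any channel. Of 11 myeloid markers 9 were measured and 5 were higher in the knockout, and of 7 natural killer (NK) cell markers 3 were higher in the knockout (adjusted p under 0.05, limma; 1.24% of all genes were higher by this test). The 5 myeloid calls, Adgre1, C1qc, Csf1r, Itgax and Lyz2, all passed the filter on low signal only through the knockout channel, where they are high. Itgax had log2 ratios of 2.29 and 2.26, and Lyz2 had 4.03 on array 1 and -0.38 on array 2, so its call rests on array 1. The NK cell calls were Fcer1g with 3.95 and 5.58, Klrb1c with 2.02 and 4.12, and Tyrobp with 1.52 and 3.94. Of these, Fcer1g and Klrb1c also passed the filter only through the knockout channel, while Tyrobp was well above background in both channels of both arrays. In bulk RNA, more cells of a type and more RNA per cell cannot be told apart.

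The starts of 4 of these genes are shown here. Of the members searched, they are those above 0 on both arrays whose upstream bases held a match to a stimulus-response motif. Entries of RefSeq's promoter table (GRCm38.p6) were used for 8 of the 10 genes, and the 250 bases before each start were searched on both strands. Egr1 and Egr3 were not searched. The motifs were the cyclic AMP response element core TGACG, the full palindrome TGACGTCA, the AP-1 site TGANTCA, the Egr site GCGNGGGCG and, by its name, the CArG box, to which serum response factor binds. Every TGACGTCA also counts as a TGACG. Capitals mark TGACG on either strand (CGTCA when read on the strand shown) and the CArG box, and each sequence runs 5′ to 3′ on the strand of its gene, ending just before the start. Egr2 is shown at chr10:67537619-67537868 (plus strand), Nr4a1 at chr15:101266596-101266845 (plus), Nr4a2 at chr2:57124004-57124253 (minus) and Fos at chr12:85473640-85473889 (plus).
Egr2: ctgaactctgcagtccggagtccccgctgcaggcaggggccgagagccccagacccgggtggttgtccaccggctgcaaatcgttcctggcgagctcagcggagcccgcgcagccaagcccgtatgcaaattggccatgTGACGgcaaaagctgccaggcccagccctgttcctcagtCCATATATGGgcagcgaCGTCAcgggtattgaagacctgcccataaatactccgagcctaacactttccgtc
Nr4a1: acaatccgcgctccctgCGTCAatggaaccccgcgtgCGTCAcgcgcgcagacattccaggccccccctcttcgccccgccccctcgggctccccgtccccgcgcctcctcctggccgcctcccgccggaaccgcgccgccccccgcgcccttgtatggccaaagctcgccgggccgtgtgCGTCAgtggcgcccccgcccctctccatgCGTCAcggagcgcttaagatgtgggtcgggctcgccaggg
Nr4a2: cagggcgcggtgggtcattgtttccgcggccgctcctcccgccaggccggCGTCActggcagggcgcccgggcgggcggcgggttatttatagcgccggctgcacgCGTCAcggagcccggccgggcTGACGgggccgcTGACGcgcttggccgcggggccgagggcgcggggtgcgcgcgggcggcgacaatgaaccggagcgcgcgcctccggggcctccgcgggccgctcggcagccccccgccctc
Fos: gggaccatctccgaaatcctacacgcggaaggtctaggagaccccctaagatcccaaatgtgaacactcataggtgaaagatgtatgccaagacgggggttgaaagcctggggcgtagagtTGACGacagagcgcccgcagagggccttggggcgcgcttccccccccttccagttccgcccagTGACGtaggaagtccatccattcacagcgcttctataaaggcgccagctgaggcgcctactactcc
TGACG was present before at least 1 start in 6 of the 8 genes (Egr2, Nr4a1, Nr4a2, Nr4a3, Fos and Junb), against 19.8% of 27025 genes with an entry. Nr4a1, Nr4a2 and Nr4a3 each held 4 matches, Egr2 and Fos 2, and Junb 1 with its first base 106 bases before the start. In Fos the matches began 129 and 66 bases before the start. Among the 8 genes, the CArG box was found only before Egr2 within the 250 bases searched, and bases further upstream were not searched. It began 72 bases before the start shown. A CArG box was found in 4 of the 5 Egr2 entries and in 1.62% of all genes. The entries at 67537619, 67537620 and 67537680 overlap and share the same stretch, CCATATATGG. The entry at 67537316 holds another, CCTTTTTTGG. The Egr site GCGNGGGCG lay before Nr4a1 and Nr4a2 (5.33% of all genes), and neither TGACGTCA (1.77%) nor TGANTCA (7.82%) was found before any of the 8. Jun and Klf6 held no match to any of these motifs in this window. A match is a stretch of letters and not evidence of binding.

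Across the 9 measured genes, none passed the test in either direction (adjusted p under 0.05, limma, where 1.49% of all genes passed in either direction and 1.24% were higher). All genes shared a standard error of 0.50, so a mean log2 ratio had to reach 1.68 in size to pass, and the highest of these genes reached 1.32. At an unadjusted p under 0.05, 4 of the 9 were past (Egr1, Egr2, Nr4a2 and Klf6), beside 9.75% of all genes. The knockout signal was above the wild-type signal on both arrays for 6 of the 9 (Egr1, Egr2, Nr4a1, Nr4a2, Fos and Klf6; 30.9% of all genes), below it on both for Egr3, and on opposite sides for Jun and Junb. The median of their mean log2 ratios was 0.84, with 0.91 on array 1 and 0.66 on array 2, beside 0.04, 0.05 and -0.01 over all genes.

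**Figure D1:**
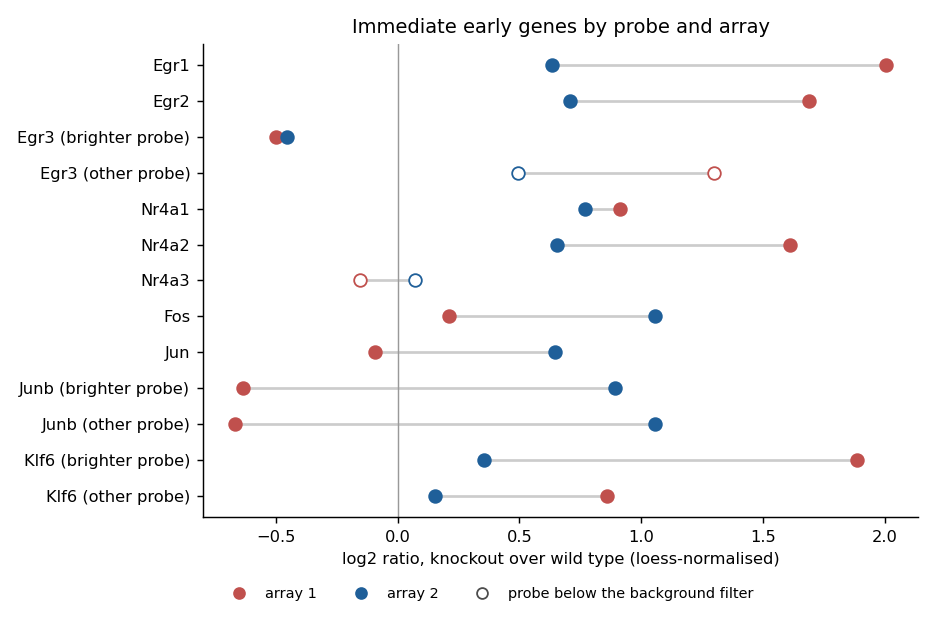
Log2 ratios of knockout over wild type for each probe of the immediate early genes, 1 point per array. The ratios of Egr1, Egr2, Nr4a2 and Klf6 are larger on array 1, those of Fos are larger on array 2, and those of Jun and Junb lie below 0 on array 1 and above 0 on array 2.

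The Egr genes encode zinc-finger factors that bind GC-rich sites; Egr2 and Egr3 are known in T cells for restraining activation and promoting anergy. The Egr1 probe (1 spot; array design position mm8 chromosome 18, 34990715 to 34990774, plus strand) had a normalised intensity, the channel's signal after normalisation within and between arrays, of 9774 in knockout cells and 2437 in wild-type cells on array 1, and 4122 in knockout cells and 2659 in wild-type cells on array 2. The wild-type values were close together while the knockout values differed more. The log2 ratios were 2.00 and 0.63, with a mean of 1.32 ± 0.97 (SD, n = 2; 2.49-fold; adjusted p = 0.215, limma), the highest mean of the 9 genes.

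Egr2 was spotted 10 times (mm8 chromosome 10, 66937367 to 66937426, plus strand). Its normalised intensity was 5497 in knockout cells and 1705 in wild-type cells on array 1, and 2078 in knockout cells and 1273 in wild-type cells on array 2. The wild-type signal was low: before normalisation it was 1356 and 1713, where negative control spots of the wild-type channel had medians of 1087 and 1120. The mean log2 ratio was 1.20 ± 0.69 (SD, n = 2; 2.29-fold; adjusted p = 0.309, limma), from 1.69 on array 1 and 0.71 on array 2.

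Egr3 went the other way by its brighter probe (mm8 chromosome 14, 68814100 to 68814159, plus strand). That probe had 765 in knockout cells and 1081 in wild-type cells on array 1, and 806 in knockout cells and 1103 in wild-type cells on array 2. The ratios were nearly equal, at -0.50 and -0.45, with a mean of -0.48 ± 0.033 (SD, n = 2; adjusted p = 0.895, limma), but the knockout channel was well above background only on array 1, so the probe passed the filter through its wild-type channel. Before normalisation the knockout spot of array 2 had 2213 and the negative controls of that channel a median of 1865. The other Egr3 probe, 68817252 to 68817311 on the same chromosome and annotated to a cDNA clone, gave 1.30 and 0.49. It was well above background only in knockout cells on array 1 and never in wild type, so no fold is given for it, and it was not tested. The 2 Egr3 probes disagreed in sign, and neither was well above background in every channel.

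Nr4a genes encode orphan nuclear receptors that act without a known natural ligand; Nr4a1 (Nur77) follows the strength of antigen receptor signalling, and all 3 are known to limit T cell responses. The Nr4a1 probe (mm8 chromosome 15, 101102674 to 101102733, plus strand) had 73202 in knockout cells and 38884 in wild-type cells on array 1, and 49346 in knockout cells and 28962 in wild-type cells on array 2. The ratios of the arrays were alike at 0.91 and 0.77. Nr4a1 thus had the smallest spread of the 6 genes above 0 on both arrays, with a mean of 0.84 ± 0.10 (SD, n = 2; 1.79-fold; adjusted p = 0.643, limma). Its rank differed between the arrays: the ratio stood at the 77.0th percentile of all genes on array 1 and at the 96.9th on array 2.

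Nr4a2 (Nurr1; mm8 chromosome 2, 56923674 to 56923733, minus strand) had 4912 in knockout cells and 1608 in wild-type cells on array 1, and 2183 in knockout cells and 1386 in wild-type cells on array 2. As for Egr2, the knockout signal was higher on array 1 than on array 2. The log2 ratios were 1.61 and 0.66, with a mean of 1.13 ± 0.68 (SD, n = 2; 2.19-fold; adjusted p = 0.366, limma). Nr4a3 (Nor1; mm8 chromosome 4, 48088918 to 48092104, plus strand) was not well above background in either genotype on either array, so no fold is given for it.

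**Figure D2:**
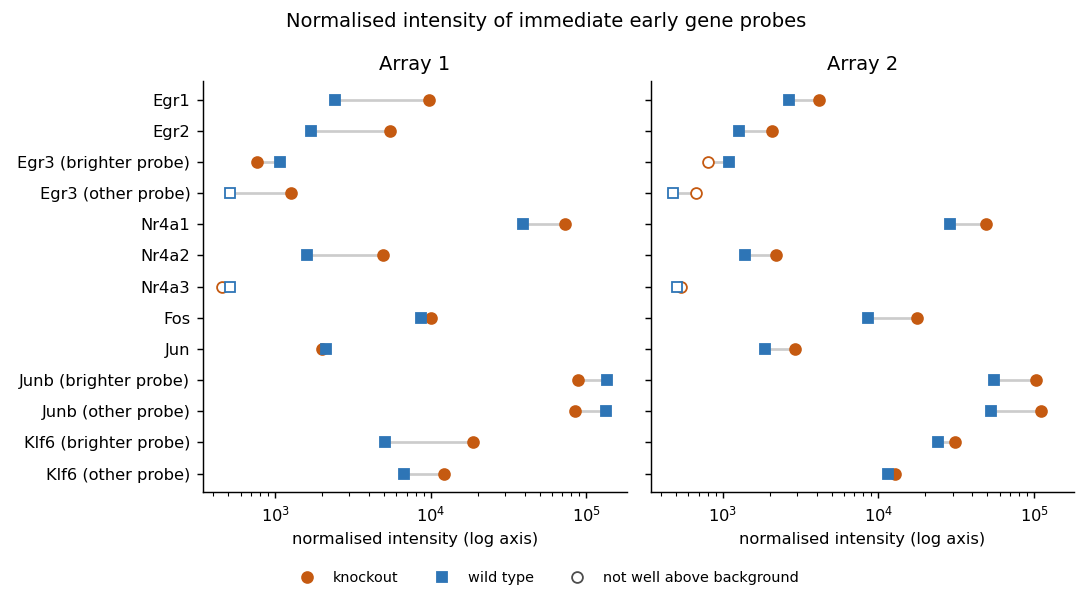
Normalised intensity of each immediate early gene probe in knockout and wild-type cells, 1 panel per array, on a log axis. Open symbols are not well above background; the Nr4a3 probe and, in wild type, 1 of 2 Egr3 probes are open on both arrays.

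Fos, Jun and Junb encode leucine-zipper subunits of AP-1, which binds DNA as Fos and Jun dimers and, with NFAT, turns on cytokine genes. Fos (10 spots; mm8 chromosome 12, 86366053 to 86366112, plus strand) had 10050 in knockout cells and 8687 in wild-type cells on array 1, and 17694 in knockout cells and 8511 in wild-type cells on array 2. The wild-type values were nearly equal, and the knockout was higher within each array, by little on array 1. Unlike the Egr and Nr4a genes, Fos had the larger ratio on array 2: 0.21 on array 1 and 1.06 on array 2, with a mean of 0.63 ± 0.60 (SD, n = 2; 1.55-fold; adjusted p = 0.815, limma). It was the only one of the 9 past 2-fold on array 2, where 1.96% of all genes were.

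Jun (10 spots; mm8 chromosome 4, 94541191 to 94541250, minus strand) had 2000 in knockout cells and 2134 in wild-type cells on array 1, and 2910 in knockout cells and 1862 in wild-type cells on array 2. The ranges of the knockout and wild-type values overlapped. The ratios were -0.09 and 0.64, with a mean of 0.28 ± 0.52 (SD, n = 2; adjusted p = 0.938, limma).

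Junb encodes an AP-1 subunit that can restrain Jun. Its brighter probe (mm8 chromosome 8, 87867049 to 87867108, minus strand) had 87940 in knockout cells and 136465 in wild-type cells on array 1, and 102722 in knockout cells and 55417 in wild-type cells on array 2. Here the wild-type values enclosed the knockout values, and the direction turned between the arrays. The ratios were -0.63 and 0.89, with a mean of 0.13 ± 1.08 (SD, n = 2; adjusted p = 0.971, limma). A second probe, 87867087 to 87867146, overlaps the first on the genome and gave -0.67 and 1.05. With median centring of each array instead of loess, the array 1 ratios of Jun and Junb were 0.96 and 0.95. That setting moved the median of all genes on array 1 to 1.11, against 0.05 with loess, and both genes stayed below the median gene, at the 44.3rd and the 43.9th percentile.

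Klf6 encodes a Krüppel-like zinc-finger factor that is induced early in many cell types. The brighter of its probes (mm8 chromosome 13, 5869371 to 5869430, plus strand) had 18752 in knockout cells and 5071 in wild-type cells on array 1, and 31077 in knockout cells and 24278 in wild-type cells on array 2. The knockout was higher within each array, but the wild-type signal of array 2 exceeded the knockout signal of array 1. The ratios were 1.89 and 0.36, with a mean of 1.12 ± 1.08 (SD, n = 2; 2.18-fold; adjusted p = 0.375, limma). The other probe (5866706 to 5866765) had the same direction with smaller ratios of 0.86 and 0.15.

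**Figure D3:**
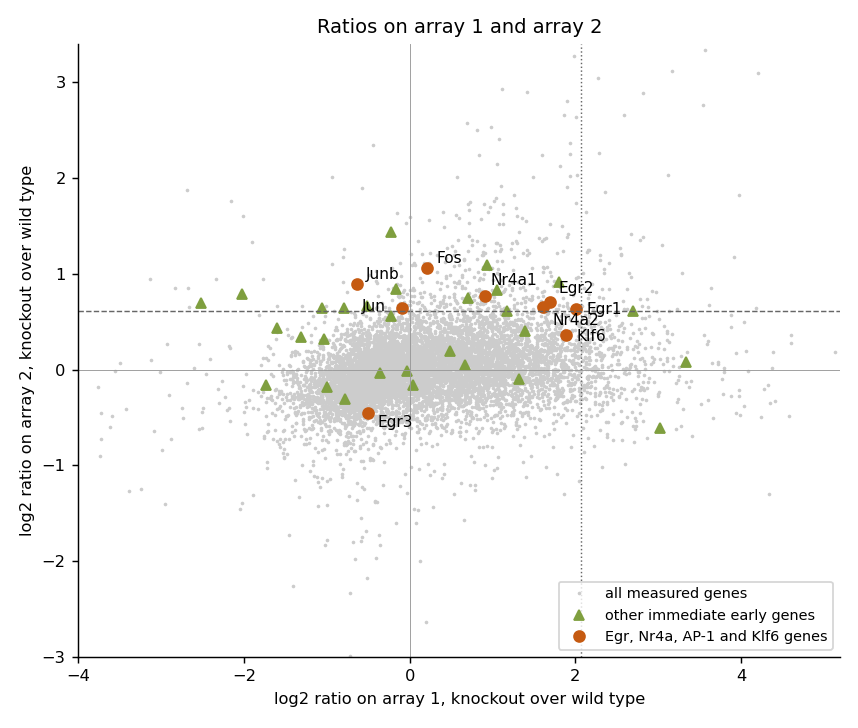
Log2 ratio of knockout over wild type on array 1 (horizontal) and array 2 (vertical) for all 9273 measured genes, with the immediate early genes named; 12 genes lie outside the axes. Most of the named genes sit high on the vertical axis, where the cloud of genes is narrow, and 6 of 9 are above 0 on both axes.

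Size and rank gave different pictures on the 2 arrays. On array 1, 4 of the 9 genes were over 2-fold higher (Egr1, Egr2, Nr4a2 and Klf6), beside 21.1% of all genes, and none reached the top 5 percent of ratios, which began at 2.07. On array 2 the top 5 percent began at 0.61, and 7 of the 9 lay in it (Egr1, Egr2, Nr4a1, Nr4a2, Fos, Jun and Junb; 5.0% of all genes by construction). Fos stood highest there, at the 98.2nd percentile, with Junb at the 97.6th, and Klf6 and Egr3 lay outside at the 87.5th and the 7.05th. This count was chosen after the values were seen, it rests on 1 array, and it was 3 of 9 with the scanner software's ratios and 3 of 9 with median centring. No gene of the 9 was past 2-fold on both arrays.

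Repeated spots gave the spread within an array. The Egr2 spots without an outlier flag had log2 ratios between 1.40 and 1.89 on array 1 (1.69 ± 0.17, SD of 9 spots) and between 0.53 and 0.83 on array 2 (0.71 ± 0.087, SD of 10 spots). Those of Fos lay between 0.08 and 0.29 on array 1 and between 1.02 and 1.12 on array 2, and those of Jun between -0.19 and -0.02 on array 1 and between 0.52 and 0.72 on array 2. For all 3 genes the spots of the arrays did not overlap, so the differences between arrays exceeded the spread among spots. Spots of an array share their RNA samples and are not replicates of the genotype. The spread of the Egr2 ratios on array 1 was above the median SD of 0.087 over 65 probes with 10 spots, and on array 2 above the median of 0.048 over 74 such probes.

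The Fos spots differed widely in signal on array 1. On array 1 the knockout signal of the Fos spots before normalisation had a lowest value of 5277, a median of 24749 and a highest of 28552, and the wild-type signal 1889, 5663 and 6491. The highest Fos spot was thus 5.41 times the lowest in the knockout channel and 3.44 times in the wild-type channel, where the median probe with 10 spots had ratios of 1.80 and 1.35. On array 2 the knockout signal of Fos ran only between 30482 and 38334. The Fos spots of array 1 with the lower signals also had the lower ratios: the 4 spots up to 11673 in the knockout channel had 0.08 to 0.17, and the 6 spots above had 0.23 to 0.29.

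**Figure D4:**
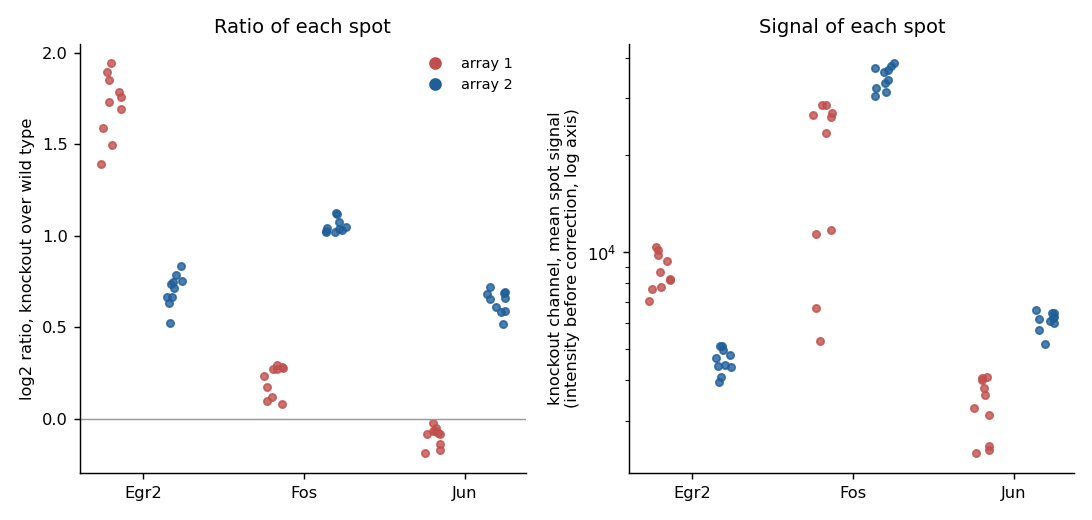
Left, log2 ratio of knockout over wild type in each spot of the 3 probes spotted 10 times, by array. Right, the knockout signal of the same spots before correction, on a log axis. Spots with an outlier flag are included. The ratios of array 1 and array 2 form separate groups for each gene, with Egr2 higher on array 1 and Fos and Jun higher on array 2.

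Other immediate early genes, a list of 36 that holds further AP-1, Krüppel-like and feedback genes, had a median mean log2 ratio of 0.17 over its 29 measured genes, with -0.17 on array 1 and 0.44 on array 2. One rose, none fell and 28 did not pass. The one was Zfp36l1, an RNA-binding protein that promotes mRNA decay, with 3.33 on array 1 and 0.08 on array 2 (adjusted p = 0.0419, limma), so that its call rests on array 1. A second Zfp36l1 probe gave 2.48 and 0.21. On array 2, 12 of the 29 were in the top 5 percent of ratios, and 21 were above 0 (48.2% of all genes), but on array 1 only 3 and 13 (51.9% of all genes). Among those 12, named here after their values were seen, Btg2, an antiproliferative gene, had 1.80 and 0.92, Dusp1, a phosphatase that switches off MAP kinases, had 1.05 and 0.83, and Rgs1, a regulator of G protein signalling, had 0.70 and 0.74. Others were on opposite sides: Maff, a small Maf factor, had -2.52 and 0.70, Gadd45b, a stress gene, had -2.02 and 0.79, and Jund, the third Jun protein, had -1.06 and 0.64. Atf3, Egr4 and Fosl1 were not well above background in either genotype.

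Signalling proteins that lead to these genes showed less on array 2. Of 27 measured, none passed, and the median mean was 0.26, with 0.46 on array 1 and -0.09 on array 2. Elk3, a partner of serum response factor, had the largest ratios with the same sign on both arrays, at 2.07 and 0.67 (adjusted p = 0.188, limma). The adaptor Lcp2 (SLP-76) had 1.59 and 0.13, the Ras activator Rasgrp1 1.30 and 0.11, and the kinase Braf -0.83 and -0.18. Dimerisation partners and corepressors also had no call among 14 measured, with a median mean of 0.34. Jdp2, which dimerises with Jun, had 1.08 and 1.52 and was at least 1.92-fold higher, as it was not well above background in wild type (adjusted p = 0.221, limma). Creb1, which binds the cyclic AMP response element, had 2.11 and 0.13, Atf2 had 0.92 and 0.15, and the Egr corepressor Nab1 had 1.11 and 0.02, while Nab2 was not well above background.

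Genes known as targets of Egr and Nr4a factors or linked to T cell tolerance had a median mean of 0.77 over 14 measured (1.02 on array 1 and 0.45 on array 2), and 3 rose, none fell and 11 did not pass. These calls depend on the fit: over probes, Id2 and Ikzf2 missed the threshold (adjusted p = 0.142 for each, limma) and Tnfrsf9 kept its call (adjusted p = 0.00502). Tnfrsf9 (4-1BB), a costimulatory receptor, had 3096 in knockout cells and 641 in wild-type cells on array 1, and 1415 in knockout cells and 172 in wild-type cells on array 2. It was not well above background in wild type and its knockout signal was higher by at least 2.61-fold (adjusted p = 5.27e-05, limma). Tnfrsf9 and Ikzf2 passed the filter on low signal only through the knockout channel, where they are high, which favours a higher call. Id2, an inhibitor of E proteins, had 10369 in knockout cells and 2116 in wild-type cells on array 1, and 14177 in knockout cells and 6173 in wild-type cells on array 2 (log2 ratios 2.29 and 1.20; adjusted p = 0.0348, limma). Ikzf2 (Helios) had 2.17 and 1.25 (adjusted p = 0.0418, limma) by a probe that was not well above background in wild type, while another of its probes was so on 1 array, so no lower bound is given. Il2, Nrp1 and Rnf128 (the ubiquitin ligase GRAIL) were not well above background in either genotype. Cd5, whose surface level is set by receptor signalling in the thymus, had -0.69 and -1.80 and did not pass (adjusted p = 0.268, limma; named after its values were seen).

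Lists that could move with these genes for other reasons are given as values. Heat shock genes, which cell handling can induce, had a median mean of 0.67 over 10 measured (0.96 on array 1 and 0.42 on array 2), with no call. Their summed normalised intensity was 254740 in knockout cells and 139253 in wild-type cells on array 1, and 279795 in knockout cells and 224596 in wild-type cells on array 2. Hspa5, an endoplasmic reticulum chaperone, had 1.97 and 0.78, Hsp90aa1 2.33 and 0.41, Hsph1 1.20 and 0.88, and Hspd1 1.67 and 0.17. The inducible Hspa1a, named after its values were seen, had -2.69 and 1.88. Housekeeping genes had a median mean of 0.52 over 12 measured, with 0.59 on array 1 and 0.00 on array 2. Of these only Ywhaz passed, at 3.77 and -0.09 (adjusted p = 0.0211, limma), a call that rests on array 1 alone. Its probe passed the filter on low signal only through the knockout channel.

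Summed NK cell markers were 69459 and 142247 in knockout cells and 34082 and 33018 in wild-type cells of arrays 1 and 2. All 7 were in the top 5 percent of ratios on array 2 but only 1 on array 1, by a measure chosen after the values were seen. Summed myeloid markers were 21952 and 25506 in knockout cells and 4513 and 11847 in wild-type cells. Their defining members Cd68 and Itgam were not well above background in either genotype, while Adgre1, C1qa, C1qb, C1qc, Csf1r and Fcgr3 were so in knockout cells only. The myeloid marker Cd14 went the other way, with log2 ratios of -0.40 and -0.08. It was well above background in wild type on 2 arrays and in the knockout on 1. Summed CD8 T cell markers were 449722 and 390459 in knockout cells and 239435 and 306756 in wild-type cells, with no call among 8. Their median mean log2 ratio was 0.82, with 0.99 on array 1 and -0.04 on array 2, and 4 of the 8 were on opposite sides. Of the erythroid markers 1 was measured, Hba-a1, with 2.56 and 0.30, and of 11 activation markers measured Tnfrsf9 alone passed, with a median mean of 0.61. Hba-a1 and Tnfrsf9 passed the filter on low signal only through the knockout channel. Summed B cell markers, of which 3 were measured, were 83198 and 82236 in knockout cells and 97192 and 78252 in wild-type cells. Among them Ms4a1 had log2 ratios of 1.28 and 0.38, Cd79b -0.51 and -0.14, and Ighm -0.22 and 0.08, with no call. The part of other cell types, of heat shock or of handling and of the Y-linked differences in the ratios of the immediate early genes was not tested.

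**Figure D5:**
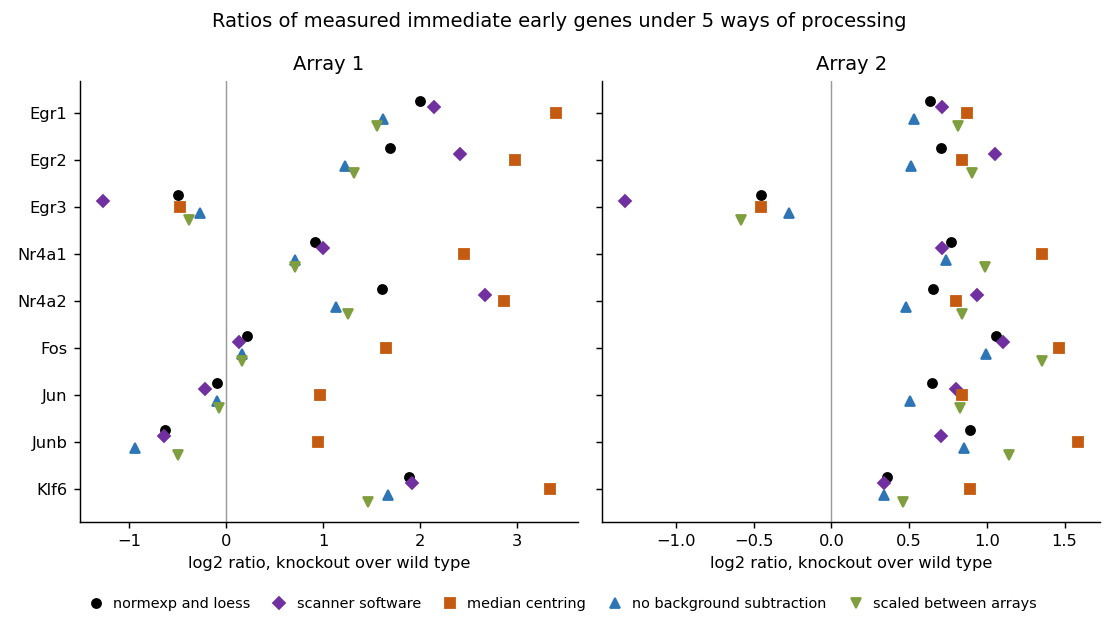
Log2 ratio of knockout over wild type of the 9 measured immediate early genes under 5 ways of processing, 1 panel per array. Egr1, Egr2, Nr4a1, Nr4a2, Fos and Klf6 stay above 0 and Egr3 below 0 in both panels, while Jun and Junb on array 1 are above 0 only with median centring, where the median of all genes on that array is 1.11.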

How the data were processed

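RNA of sorted CD8+ T cells was amplified and labelled chemically, per the labels' protocols, and the submitters' processing notes name Agilent Feature Extraction 9.5.3.1 for the scans. The deposited scanner files hold, per spot, mean signal and local background as linear intensity values without normalisation, per the file headers, and a log10 ratio of Cy5 over Cy3 made by the scanner software. The deposited value table holds log10 ratios, which matched the scanner's within 0.005 at 45018 spots in each column (medians 0 and 0).

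With limma 3.58.1 in R 4.3.3, intensities were background-corrected (normexp, offset 50) and log2 ratios normalised within arrays (loess). Control spots and outlier spots had weight 0 and were dropped afterwards, and the spots of each probe were averaged. A probe was well above background if at least 50 percent of its spots were. It was kept if the same channel was so on both arrays, and the brightest kept probe represented its gene. Normalised intensities are channel values after loess and Aquantile normalisation. Mean ratios of 9273 genes were tested two-sided with lmFit and eBayes and adjusted by Benjamini-Hochberg (threshold 0.05). The fit was tested on simulated data. With 2 arrays there was 1 residual degree of freedom per gene, the prior degrees of freedom were infinite, and the number of arrays limits the precision. One spread was thus shared by all genes, so a gene's p-value follows its mean ratio and not the spread of its own 2 ratios.

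"At least N-fold" sets the mean of the brighter channel over that of the dimmer one, in which each array counts at the dim probe's signal or, if higher, at the lowest signal of any probe called well above background. It is open to dye bias. The array design gave the positions, on mm8 per the file headers. Probes were named through RefSeq accessions or symbols. Named are all 10 members, Bcl11b, and of each list up to 4 genes with the largest mean ratio in size, taken from those that passed or, where none did, from those whose ratios had equal signs. Defining markers not well above background are named too. Ighm, Lyz2, C1qa, C1qb, Fcgr3, Cd14, Ddx3y and Eif2s3y fall outside this rule. So do genes marked as named after their values were seen, and other genes given only as not well above background. Members and lists were chosen with earlier results of these data known. Both arrays formed 1 group of ratios, and no other batch was tested. Alternatives changed the background, normalisation, scaling, filter and probe choice.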

Additional observations from a re-analysis of the deposited data

How the results depend on the processing

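None of the immediate early genes passed in limma under any of the 9 refits (2 to 6 of them at an unadjusted p under 0.05, with 4 as reported). Over all genes, 138 passed as reported. The count was 31 in the fit over probes, 35 without background subtraction, 39 with probes well above background in both channels of both arrays, and 64 with median centring (63 higher and 1 lower, against 115 and 23). It was 0 with the scanner software's ratios, with ratios scaled to the same spread and with no filter on dim probes (limma; 574, 902 and 2478 genes at an unadjusted p under 0.05). The calls of Tnfrsf9, Id2 and Ikzf2 ended under these last 3 settings. Id2 was also lost over probes, Tnfrsf9 without background subtraction (adjusted p = 0.0709, limma), and Ikzf2 over probes, without background subtraction and with median centring. Of the refits that tested them, Zfp36l1 kept its call in 1 of 9, Ywhaz in 1 of 8 and Lyz2 in 2 of 8. The median ratio of the members, 0.84 as reported, was 1.84 with median centring, where the median of all genes was 0.68, and 0.66 to 0.91 with either array left out. The members in the top 5 percent on array 2, a count chosen after seeing the data, were 7 as reported, 3 with the scanner software and 3 with median centring. Reversed were Junb without background subtraction (-0.046) and, with array 2 left out, Jun (-0.094) and Junb (-0.63). With array 1 left out these 2 were 0.64 and 0.89. The cause was not tested. With an array left out, 1 ratio remained, so there was no test, and the members' values are those of single arrays, -0.63 to 2.00. No paired analysis was possible because each array already is 1 ratio of a knockout over a wild-type sample, so the replicate number is the array itself. Low signal limits some ratios: Nr4a2 in wild type had 1322 and 1813 before normalisation, where the negative controls had medians of 1087 and 1120.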
